A study of Homo sapiens with 6 samples.

Results

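Lysosomes are the acidic compartments in which cells take apart proteins, sugars and lipids. The genes described here encode the enzymes and activator proteins of the lysosome lumen, proteins of its membrane, the subunits of the vacuolar proton pump (V-ATPase) that acidifies it, and the transcription factors TFEB, TFE3 and MITF, which control many of these genes. They were taken from the deposited table by name: 44 listed symbols together with every symbol that begins with ATP6V0 or ATP6V1 (27 rows), which gave 71 of 28395 rows. Of the rows with that prefix, 22 are V-ATPase subunits. The other 5 are the antisense RNAs of ATP6V0E2 and ATP6V1B1, the pseudogene ATP6V0CP3, the read-through row ATP6V1G2-DDX39B, and ATP6V1FNB, a neighbour of ATP6V1F.

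The values come from RNA-seq of HCC827, an established human lung adenocarcinoma cell line with an activating EGFR deletion, which all 6 libraries share. Cells received the vehicle DMSO (3 libraries, numbered 1 to 3) or 1 μM erlotinib, an inhibitor of the EGFR kinase (3 libraries, numbered 4 to 6 as in the table's columns), for 24 h, and the question was how transcripts change when EGFR is blocked. Each library held between 20760204 and 24641819 reads on genes. Values are given as signal, the reads of a gene divided by the size factor of its library (0.882 to 1.08). Nothing in the labels says that the 3 libraries of a group came from separate cultures. The paper states in general that its experiments, apart from the animal studies, had at least 3 independent repeats, without naming these libraries. The p-values therefore measure only the spread between these samples, which may be technical. All 6 libraries come from 1 cell line, and a change in fewer cells cannot be told apart from a change in RNA per cell.

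The 7 epithelial markers examined were abundant in every library, among them EPCAM at 9852 ± 235 (SD, n = 3) in DMSO and 9485 ± 281 with erlotinib. Of these 7 markers, 5 were lower with erlotinib, KRT18 by 1.25, KRT8 by 0.83 and EGFR itself by 0.81 on the log2 scale (adjusted p = 1.6e-12, 4.3e-10 and 2.4e-09, limma with Benjamini-Hochberg adjustment). Markers of leukocytes, cells rich in lysosomes, summed over 10 genes to 141, 136 and 154 in DMSO and 123, 141 and 124 with erlotinib. CSF1R, the most abundant of them, had 126, 118 and 136 in DMSO and 80.3, 112 and 90.8 with erlotinib and missed the threshold (adjusted p = 0.055, limma). It took 87.0 to 89.5% of the sum in DMSO and 65.4 to 79.6% with erlotinib. The other 9 genes summed to 14.7, 17.6 and 18.2 in DMSO and to 42.4, 28.7 and 32.8 with erlotinib, so that without CSF1R the sum was higher in each erlotinib library. Among them the integrin gene ITGAM, too scarce to be tested, had 6, 6 and 2 reads in DMSO and 13, 18 and 10 with erlotinib. The defining leukocyte gene PTPRC stayed below 6 in each library, and MRC1 and TYROBP were at 0. AIF1 was also listed at 0, but an alternate contig carries its sequence as well, so this 0 cannot be read as absence of expression.

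Of the 71 genes, 61 had a mean signal of at least 10 over the 6 libraries and were tested together with all 14215 genes that passed this filter. Erlotinib raised 29 of them and lowered 17 at an adjusted p under 0.05 (limma on log2(signal + 1), Benjamini-Hochberg), and 15 passed in neither direction. Among all tested genes, 35.3% were called higher and 35.4% lower, so the response to erlotinib was broad. In the 61 genes these shares were 47.5% and 27.9%. The median log2 fold change was 0.20 in the 61 genes and 0.017 over all genes. Without the filter on low signals it was 0.11 in the 65 genes that entered and 0.13 over all genes, so the members' median was then the lower, and without DMSO replicate 2 it was 0.13 in the 61 genes. The groups of libraries did not overlap, with erlotinib above, in 29 of the 61 genes (36.7% of all tested genes) and, with erlotinib below, in 18 (36.9% of all). A call with a log2 fold change of at least 1 was made upward in 16 genes and downward in 3, against 17% and 10.8% of all tested genes.

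Of the 32 tested enzymes and activators of the lumen, 23 rose (71.9%), 5 fell (15.6%) and 4 did neither. The median of their log2 fold changes was 0.84. Of the 17 tested V-ATPase subunits, 1 rose (5.88%), 9 fell (52.9%) and 7 did neither, with a median of -0.23. Among all tested genes 35.3% rose and 35.4% fell. The difference between these groups of genes was not tested. When each library was instead scaled to its total count, the median of all tested genes moved from 0.017 to 0.20 and calls over all genes from 5012 higher and 5031 lower to 6182 and 3952. Calls among the 61 genes then moved from 29 higher and 17 lower to 37 and 13, so the small changes described here depend on the scaling. The shares of all tested genes given below are those of the main fit, also where calls under total-count scaling stand beside them.

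**Figure D1:**
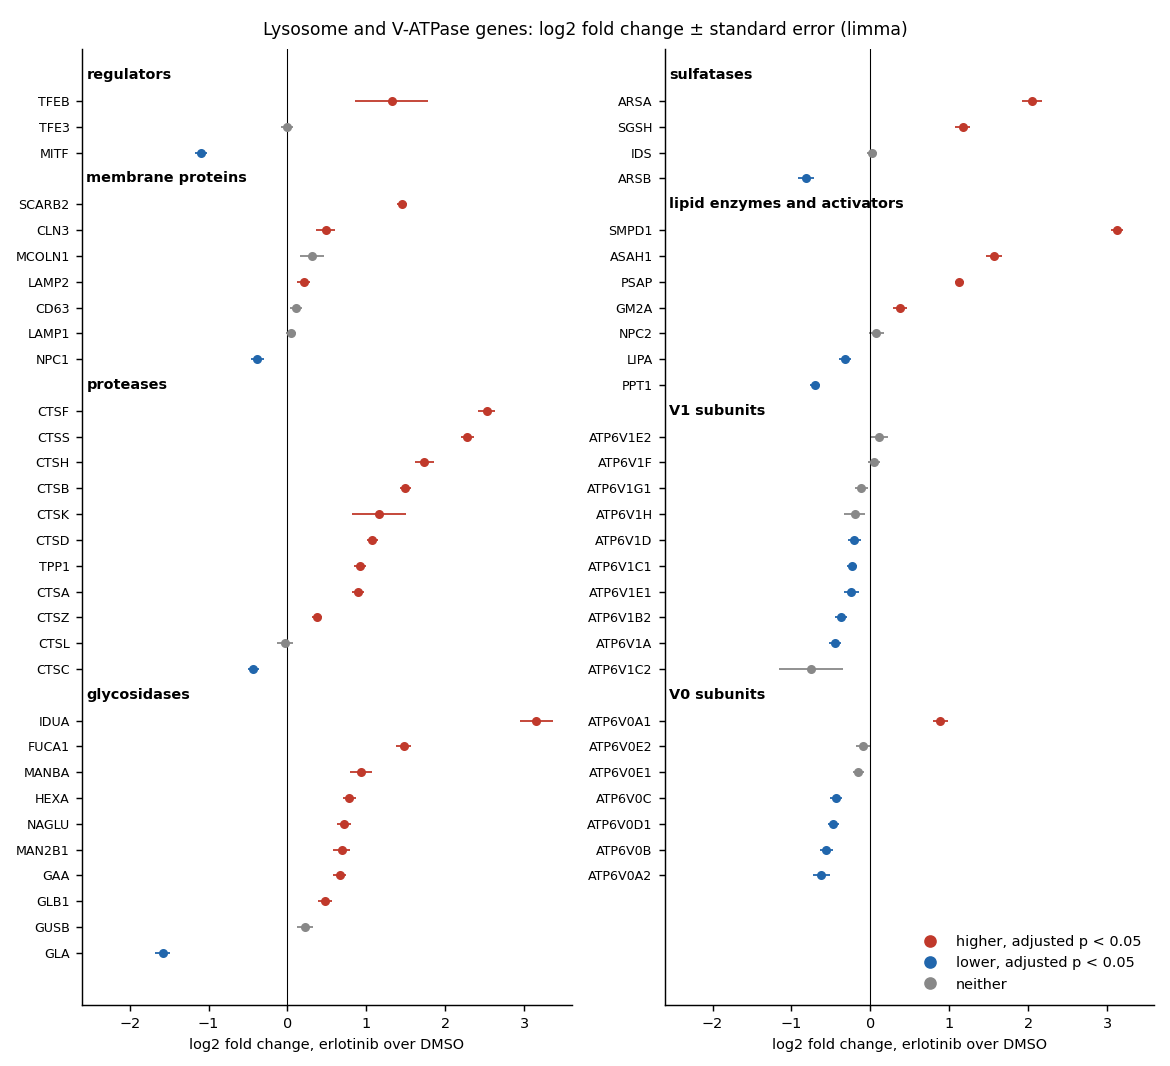
Log2 fold change of the 59 tested genes that code for lysosome proteins, erlotinib over DMSO (x axis, log2 scale), with the standard error from limma as a bar, grouped by role. Red points were called higher, blue points lower and grey points neither at an adjusted p under 0.05. Most enzymes of the lumen lie to the right of 0 and most V-ATPase subunits between -0.75 and 0.11, with ATP6V0A1 at 0.89 as the exception among the subunits.

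TFEB, TFE3 and MITF belong to a family of basic helix-loop-helix factors that bind the CLEAR element, a palindromic word found near the start of many lysosome genes. The kinase mTORC1 holds these proteins in the cytoplasm when nutrients are plentiful, a control that does not show in RNA levels. TFEB rose, MITF fell and TFE3 passed in neither direction. TFEB (chromosome 6, 41683978 to 41736223 of GRCh38) stood at signals of 7.94, 11.1 and 16.1 in DMSO and 43.4, 18.8 and 31.8 with erlotinib. Every erlotinib library lay above every DMSO library, but at a level of few reads. Its log2 fold change was 1.32 (standard error, SE, 0.46, adjusted p = 0.0151, limma). The call was lost without erlotinib replicate 4 (1.05, adjusted p = 0.109) and without erlotinib replicate 6 (1.27, adjusted p = 0.0548).

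TFE3 (chromosome X, 49028726 to 49043357) stood at 1225, 1185 and 1227 in DMSO and at 1271, 1213 and 1146 with erlotinib. The groups overlapped, with a log2 fold change of -0.00 (SE 0.08, adjusted p = 0.966, limma). MITF (chromosome 3, 69739464 to 69968332), known above all from pigment cells, fell from 4045, 4418 and 3736 to 1889.9, 1971 and 1838. No erlotinib library came near the DMSO range, and the log2 fold change was -1.09 (SE 0.07, adjusted p = 3.4e-11, limma).

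Per kilobase of transcript, MITF was the most abundant of the 3 in DMSO, at 847 ± 71.1 against 368 ± 7.17 for TFE3 and 5.02 ± 1.75 for TFEB (SD, n = 3). With erlotinib, MITF and TFE3 came close to each other, at 396 ± 14 and 368 ± 19.0, while TFEB was at 13.4 ± 5.27. MITF made up 69.3% of the summed level of the 3 genes in DMSO and 51.0% with erlotinib. The ratio of MITF to TFE3 was 2.26, 2.56 and 2.09 in the DMSO libraries and 1.02, 1.12 and 1.10 in the erlotinib libraries. With 3 libraries a group, an exact two-sided permutation test cannot give a p below 0.1. It gave that value here (0.15 after Benjamini-Hochberg adjustment over the 6 ratios computed).

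The promoters of these genes were searched for the CLEAR element, on RefSeq windows of GRCh38.p14 that run from 250 bases before to 50 bases after each start. Windows existed for 50 of the 71 genes, 74 in all. The words searched, on both strands, were CACGTG, its extension TCACGTGA, and the CLEAR word proper, which adds G before and C after the latter. Each is a palindrome that contains the one before. CACGTG was present in 21.6% of the 74 windows, in 7.26% of all 35116 RefSeq windows and in 9.18% of the windows of tested genes. TCACGTGA was present in 10.8%, 0.98% and 1.62% of them, and the CLEAR word in 4.05%, 0.353% and 0.65%. A match is a run of letters and does not show that a factor binds there. Stretches that hold the words are printed below for a selection of genes that rose, fell or passed in neither direction. They run 5′ to 3′ on the strand of the gene and upstream of its start, with the words in capitals. Those of CLN3 and CTSD (higher), ARSB (lower), CD63 and ATP6V0E2 (neither) and NEU1 (not tested) are not printed.
LAMP1, neither, chr13:113297032-113297232, plus strand: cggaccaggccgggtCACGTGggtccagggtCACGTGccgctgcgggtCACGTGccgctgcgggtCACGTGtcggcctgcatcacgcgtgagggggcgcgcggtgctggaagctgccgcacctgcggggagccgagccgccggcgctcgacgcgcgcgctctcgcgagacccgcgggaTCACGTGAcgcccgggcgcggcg
MCOLN1, neither, chr19:7522567-7522623, plus strand: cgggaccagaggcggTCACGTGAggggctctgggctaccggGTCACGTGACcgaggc
ATP6V1G1, neither, chr9:114587694-114587733, plus strand: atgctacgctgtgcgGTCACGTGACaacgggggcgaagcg
GAA, higher, chr17:80101488-80101572, plus strand: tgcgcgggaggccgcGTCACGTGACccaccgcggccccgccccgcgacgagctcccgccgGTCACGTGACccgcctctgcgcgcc
CTSA, higher, chr20:45891278-45891331, plus strand: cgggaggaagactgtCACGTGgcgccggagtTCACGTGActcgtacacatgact
CTSF, higher, chr11:66568637-66568744, minus strand: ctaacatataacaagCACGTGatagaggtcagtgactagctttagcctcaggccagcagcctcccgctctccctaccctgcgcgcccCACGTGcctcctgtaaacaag
ATP6V0B, lower, chr1:43974888-43974941, plus strand: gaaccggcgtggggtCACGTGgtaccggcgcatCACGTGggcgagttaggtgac
ATP6V0D1, lower, chr16:67481195-67481232, minus strand: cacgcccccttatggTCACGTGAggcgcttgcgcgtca

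LAMP1, which holds 5 of the words in the stretch shown, between 192 and 29 bases before its start, did not pass the test. Of the 13 tested genes with CACGTG in a window, 5 rose, 3 fell and 5 did neither, and their median log2 fold change was 0.11. Of the 30 tested genes with windows but without it, 12 rose, 11 fell and 7 did neither, with a median of 0.034. For the longer word TCACGTGA, 3 of 7 genes rose and 1 fell with it, and 14 of 36 rose and 13 fell without it. Over all tested genes the shares were 35.3% higher and 35.4% lower. The difference between genes with and without a word was not tested. SMPD1 and IDUA, the genes with the largest rises, are not among the 13. Windows existed for only 50 of the 71 genes, so a gene can be missing from the 13 without having been searched. A window without the word says only that these letters are missing from those 300 bases.

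Of the 7 membrane proteins examined, 3 rose, 1 fell and 3 did neither. The shares were 42.9% higher and 14.3% lower, against 35.3% and 35.4% of all tested genes. With libraries scaled to the total count, 6 were called higher and 1 lower. Over all genes this scaling gave 6182 higher and 3952 lower. LAMP1 and LAMP2 are the heavily glycosylated proteins that line the inner face of the lysosomal membrane, and their change was small. LAMP1 (chromosome 13, 113297239 to 113323672) had a signal of 8583, 8673 and 8583 in DMSO and 8913, 9063 and 8662 with erlotinib. The ranges overlapped slightly, and the log2 fold change of 0.04 (SE 0.06, adjusted p = 0.52, limma) missed the threshold, while with libraries scaled to the total count it was 0.22 (adjusted p = 0.0021). LAMP2 (chromosome X, 120426148 to 120469349) was at 5181, 6488 and 5213 in DMSO and at 6313, 6629.8 and 6393 with erlotinib. DMSO library 2 lay inside the erlotinib range. Its log2 fold change was 0.20 (SE 0.08, adjusted p = 0.0242, limma), a call that was lost without DMSO replicate 1 (0.15, adjusted p = 0.113), without DMSO replicate 3 (0.15, adjusted p = 0.131), without erlotinib replicate 5 (0.18, adjusted p = 0.0896) and without erlotinib replicate 6 (0.21, adjusted p = 0.0541).

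SCARB2, a membrane protein that also serves as a sorting receptor, rose most of the 7 (chromosome 4, 76158737 to 76234532). Its signal was 2482, 2621 and 2365 in DMSO and 6736, 6895 and 6738 with erlotinib. The groups were far apart, with a log2 fold change of 1.45 (SE 0.07, adjusted p = 5.8e-14, limma). FAM47E, an overlapping gene, had only 7.24 ± 0.379 and 29.1 ± 11.6 (SD, n = 3 each). CLN3, a membrane protein mutated in juvenile neuronal ceroid lipofuscinosis, rose by 0.48. The calcium channel MCOLN1 and the tetraspanin CD63 had log2 fold changes of 0.31 and 0.11 and were not called (adjusted p = 0.076 and 0.20, limma). Without DMSO replicate 1 both were called higher (0.41 and 0.19, adjusted p = 0.0315 and 0.0356, limma). With total-count scaling both were called too (0.49 and 0.29, adjusted p = 0.0076 and 0.0015, limma).

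NPC1, which moves cholesterol out of the lysosome together with the lumen protein NPC2, was the only member of this group that fell (chromosome 18, 23506184 to 23586506). Its signal went from 1548, 1629.8 and 1538 to 1227, 1112 and 1281, without overlap. The log2 fold change was -0.38 (SE 0.08, adjusted p = 0.00024, limma), while that of NPC2 was 0.08 (adjusted p = 0.48). RMC1, which overlaps NPC1, had 145 ± 9.88 and 125 ± 37.0 (SD, n = 3 each).

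The proteases of the lumen rose almost throughout. Cathepsins are the proteases that digest proteins in the lysosome, most of them cysteine proteases and CTSD an aspartic protease. Of the 11 tested proteases, 9 rose, 1 fell and 1 did neither, and the median log2 fold change was 1.08. The shares were 81.8% higher and 9.09% lower, against 35.3% and 35.4% of all tested genes. All 10 calls were also made under each of the 15 alternative settings.

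CTSF (chromosome 11, 66563464 to 66568606), a cysteine cathepsin, rose most, with 171, 203 and 196 in DMSO and 1121, 1066 and 1108 with erlotinib. The erlotinib mean was 5.78 times that of DMSO, and the log2 fold change was 2.53 (SE 0.11, adjusted p = 2.7e-14, limma). CTSS (chromosome 1, 150730188 to 150765778), best known for processing the invariant chain in antigen-presenting cells, had 644, 788 and 768 in DMSO and 3604, 3642 and 3396 with erlotinib. Again no library of either group approached the other, and the log2 fold change was 2.28 (SE 0.08, adjusted p = 2.4e-15, limma). CTSH, an aminopeptidase that also processes surfactant proteins in the lung, had 204, 239 and 265 against 834, 771 and 751, a log2 fold change of 1.74. CTSK, the collagen-degrading cathepsin of osteoclasts, was scarce in all libraries, with 15.9, 21.4 and 22.5 against 38.8, 46.5 and 51.5. Its log2 fold change of 1.16 passed the threshold (SE 0.34, adjusted p = 0.005, limma).

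Of the cathepsins that are abundant in most tissues, CTSB was at 3103, 2644 and 3004 in DMSO and at 8032, 8336 and 8237 with erlotinib. CTSD (chromosome 11, 1752755 to 1763927) was at 4524, 3648 and 4102 and at 8629, 8773 and 8386. Both sets of libraries were clearly separated, with log2 fold changes of 1.49 (SE 0.07, adjusted p = 8.4e-14, limma) and 1.08 (SE 0.07, adjusted p = 3.8e-11, limma). Smaller rises were those of the tripeptidyl peptidase TPP1 (0.92), of CTSA, which also protects beta-galactosidase and sialidase (0.89), and of the carboxypeptidase CTSZ (0.37). CTSL, a cathepsin as widely expressed as CTSB, had 684, 874 and 729 in DMSO and 703, 765 and 768 with erlotinib. These values overlapped, and its log2 fold change was -0.03 (adjusted p = 0.83, limma), with a positive sign in 3 of the 15 alternatives.

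CTSC, the dipeptidyl peptidase that activates granule proteases, fell against the direction of the group (chromosome 11, 88293592 to 88337736). Its signal was 4296, 5230.4 and 4295 in DMSO and 3415, 3404 and 3387 with erlotinib. All erlotinib libraries lay below the DMSO range, with a log2 fold change of -0.43 (SE 0.08, adjusted p = 3.5e-05, limma). Per kilobase of transcript, CTSC had the highest mean of the proteases in DMSO (2464 ± 289, SD, n = 3), and CTSD followed (1991 ± 213) at a distance little wider than these spreads. With erlotinib CTSD (4183 ± 95.1), CTSB (2197 ± 41.5) and CTSZ (2092 ± 23.8) stood above CTSC (1819 ± 7.69). Its share of the summed protease level went from 27.8% to 12.3%.

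**Figure D2:**
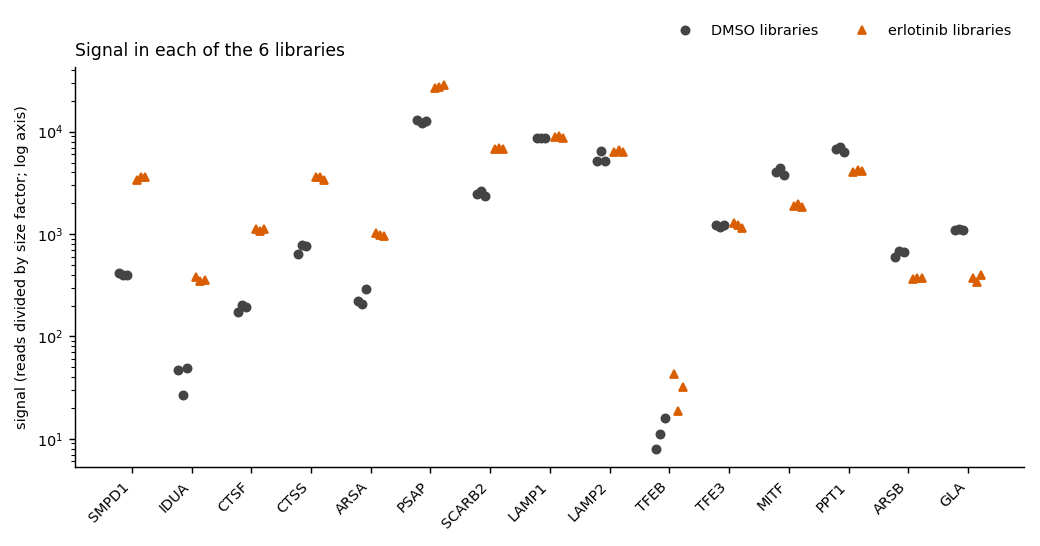
Signal (reads divided by the size factor, log axis) of 15 lysosome genes in each of the 6 libraries. Grey circles are DMSO libraries and orange triangles erlotinib libraries. SMPD1, IDUA, CTSF, CTSS, ARSA, PSAP and SCARB2 separate with erlotinib above, MITF, PPT1, ARSB and GLA separate with erlotinib below, and LAMP1, LAMP2 and TFE3 overlap.

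Glycosidases remove sugars from glycoproteins, glycolipids and glycosaminoglycans, and the loss of each causes its own storage disease. Of the 10 tested, 8 rose, 1 fell and 1 did neither (median 0.70 on the log2 scale). The shares were 80% higher and 10% lower, against 35.3% and 35.4% of all tested genes. IDUA, which removes iduronic acid from heparan and dermatan sulfate, rose most (chromosome 4, 986997 to 1004564). It had 46.5, 26.9 and 49.2 in DMSO and 379, 348 and 354 with erlotinib. The low DMSO level and the erlotinib level did not meet, and the log2 fold change was 3.16 (SE 0.21, adjusted p = 3.8e-11, limma). SLC26A1 overlaps IDUA along 6408 bases and rose too, from 148 ± 29.4 to 393 ± 24.9 (SD, n = 3 each), or by 1.43 on the log2 scale. The strand counted is not stated in the sources used here, so reads of these genes may not be told apart.

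FUCA1, which removes fucose, went from 319, 326 and 347 to 898, 872 and 986. The libraries separated fully, with a log2 fold change of 1.47 (SE 0.10, adjusted p = 4.6e-11, limma). The beta-mannosidase MANBA (0.93), the hexosaminidase subunit HEXA (0.78), NAGLU of heparan sulfate breakdown (0.71), the alpha-mannosidase MAN2B1 (0.69), the glycogen-degrading GAA (0.66) and the beta-galactosidase GLB1 (0.47) also rose. GUSB, the beta-glucuronidase, had a log2 fold change of 0.22 and missed the threshold (adjusted p = 0.06, limma). GUSB was called higher with edgeR (0.24, adjusted p = 0.046), limma-voom (0.24, adjusted p = 0.040) and total-count scaling in limma (0.40, adjusted p = 0.0016). The same call was made in limma without DMSO replicate 1 (0.30, adjusted p = 0.0186) and without erlotinib replicate 6 (0.30, adjusted p = 0.0272). For GAA, whose promoter stretch above holds 2 copies of the longest word, the signal went from 1987, 1729 and 2123 to 3076, 3198 and 2936.

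GLA, the alpha-galactosidase that is deficient in Fabry disease, fell most of the lysosome genes tested (chromosome X, 101397803 to 101407925). It stood at 1098, 1123 and 1102 in DMSO and at 374, 343 and 396 with erlotinib. The replicates lay close together and the groups far apart, with a log2 fold change of -1.58 (SE 0.10, adjusted p = 6.6e-12, limma). Per kilobase, GLA made up 29.1% of the summed glycosidase level in DMSO, where it was the most abundant of the 11, and 7.61% with erlotinib.

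Of the 4 sulfatases, which remove sulfate from lipids and glycosaminoglycans, 2 rose, 1 fell and 1 did neither. The shares were 50% higher and 25% lower, against 35.3% and 35.4% of all tested genes. ARSA, the enzyme for sulfatide, had 222, 207 and 291 in DMSO and 1024, 983 and 951 with erlotinib. SGSH, which acts on heparan sulfate, had 434, 485 and 487 and then 1066, 986 and 1119. Neither gene had overlapping groups, and the log2 fold changes were 2.05 (SE 0.12, adjusted p = 4.5e-12, limma) and 1.17 (SE 0.10, adjusted p = 7.0e-10, limma). SGSH shares 8659 bases with CARD14, which rose from 49.7 ± 11.7 to 166 ± 10.1 (SD, n = 3 each). ARSB, which acts on dermatan and chondroitin sulfate, fell from 596, 688 and 672 to 362, 371 and 373. Its log2 fold change was -0.82 (SE 0.10, adjusted p = 6.1e-07, limma), and the groups did not overlap. IDS, the iduronate sulfatase, held most of the summed sulfatase level per kilobase (84.5% in DMSO and 74.3% with erlotinib) and had a log2 fold change of 0.02 (adjusted p = 0.79, limma).

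Among the 7 proteins that break down or present lipids, 4 rose, 2 fell and 1 did neither. The shares were 57.1% higher and 28.6% lower, against 35.3% and 35.4% of all tested genes. SMPD1, the acid sphingomyelinase that turns sphingomyelin into ceramide, had the smallest adjusted p of the lysosome genes tested (chromosome 11, 6390474 to 6394996). It stood at 412, 394 and 400.3 in DMSO and at 3369, 3579 and 3595 with erlotinib. The erlotinib mean was 8.74 times the DMSO mean, and the log2 fold change of 3.12 (SE 0.08, adjusted p = 1.0e-17, limma) stayed between 3.10 and 3.30 in the alternatives. ASAH1, the acid ceramidase that acts on the product of SMPD1, had 795, 1062 and 788 in DMSO and 2565, 2513 and 2693 with erlotinib. These values do not overlap either, with a log2 fold change of 1.57 (SE 0.10, adjusted p = 9.4e-12, limma).

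PSAP encodes prosaposin, from which the saposins are cut that present sphingolipids to their enzymes (chromosome 10, 71816298 to 71851251). Its signal was 13124, 12141 and 12579 in DMSO and 26992, 27419 and 28324 with erlotinib. The groups were well separated, with a log2 fold change of 1.13 (SE 0.06, adjusted p = 1.1e-12, limma). Per kilobase, PSAP was the most abundant of the 34 lumen genes in both groups, with 18.9% of their summed level in DMSO and 26.7% with erlotinib. GM2A, the activator of GM2 ganglioside breakdown, rose by 0.38.

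PPT1, which removes palmitate from proteins, fell most among the lipid enzymes (chromosome 1, 40071461 to 40097252). It went from 6821, 7070.1 and 6310.5 to 4051, 4247 and 4107, without overlap. The log2 fold change was -0.70 (SE 0.07, adjusted p = 5.5e-09, limma), and its share of the lumen genes' summed level per kilobase went from 12.1% to 4.82%. CAP1 overlaps PPT1 along 1188 bases and fell by 0.63 on the log2 scale, from 7510.5 ± 485 to 4844 ± 77.5 (SD, n = 3 each). LIPA, the acid lipase for cholesteryl esters and triglycerides, had a log2 fold change of -0.32 (adjusted p = 0.00068, limma). The LIPA interval holds the interferon-induced genes IFIT2 and IFIT3, which rose by 2.36 and 1.09. The call for LIPA was lost with libraries scaled to the total count (-0.15, adjusted p = 0.10), and the calls of the group were then 5 higher and 1 lower.

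**Figure D3:**
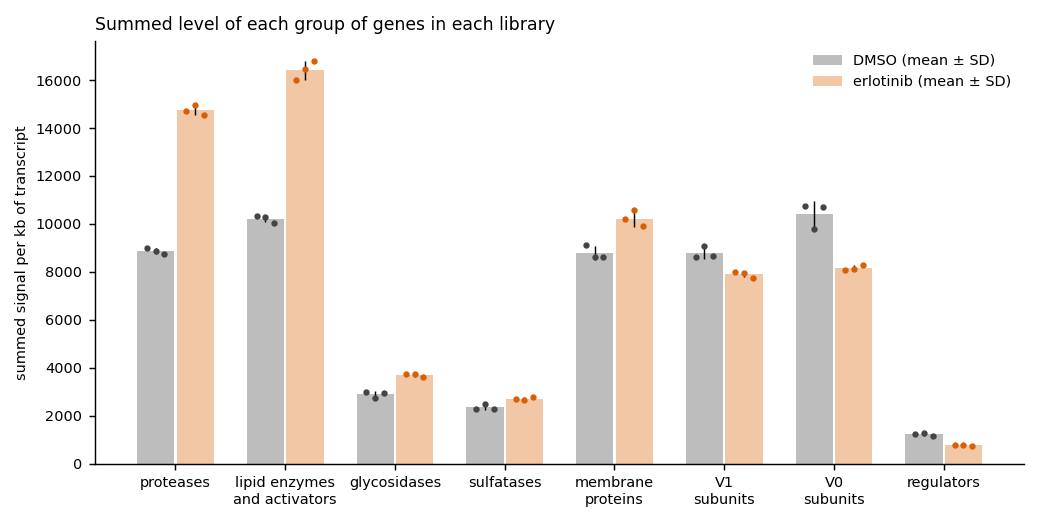
Summed signal per kilobase of transcript for each group of genes (y axis, from 0), with bars for the mean and the SD of 3 libraries and a point for each library, grey for DMSO and orange for erlotinib. Proteases and lipid enzymes with activators show the widest gaps, the V0 and V1 subunits and the regulators lie lower with erlotinib, and no group of genes has overlapping libraries.

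Summed over the 34 lumen genes, the level per kilobase was 24607, 24391 and 24021 in the DMSO libraries and 37123, 37804.5 and 37740 in the erlotinib libraries. The erlotinib mean was 1.54 times the DMSO mean, at 37556 ± 376 against 24340 ± 296 (SD, n = 3 each). The sum of the lipid enzymes and activators per kb was 10223 ± 159 over the DMSO libraries against 16406 ± 396 over the treated ones (SD, n = 3 each). The ratio was 1.66 for proteases, 1.28 for glycosidases, 1.15 for sulfatases and 1.16 for membrane proteins. The lumen genes together took 0.292% of all signal in DMSO and 0.515% with erlotinib. These sums weigh abundant genes most and are given without a test.

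The V-ATPase consists of the V1 sector, which hydrolyses ATP in the cytosol, and the V0 sector in the membrane, through which protons pass. The sum over the 22 subunits was 19390, 18871 and 19347 per kilobase in DMSO and 16097, 16059 and 16044 with erlotinib. No libraries overlapped, and the ratio of the means was 0.837. As a share of all signal the subunits went from 0.166% to 0.159%, a smaller difference.

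In the V1 sector, 5 of the 10 tested subunits fell, 5 did neither and 0 rose (limma), as was also the case at an unadjusted p under 0.05 and with edgeR, DESeq2 and limma-voom. The shares were 50% lower and 0% higher, against 35.4% and 35.3% of all tested genes. With libraries scaled to the total count the V1 calls were 2 higher and 2 lower, against 6182 higher and 3952 lower over all genes. ATP6V1A, the catalytic subunit, fell most of those called (chromosome 3, 113747035 to 113812056). It had 2848, 3518 and 3032 in DMSO and 2321, 2238 and 2285 with erlotinib. The groups did not overlap, and the log2 fold change was -0.45 (SE 0.08, adjusted p = 2.7e-05, limma), or -0.27 with total-count scaling (adjusted p = 0.0058). ATP6V1B2, the nucleotide-binding partner of subunit A, fell by 0.37.

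The falls of ATP6V1E1 (-0.24), ATP6V1C1 (-0.23) and ATP6V1D (-0.20) were smaller. All 3 calls were lost with libraries scaled to the total count, where the log2 fold changes were -0.064, -0.052 and -0.025. ATP6V1D also lost its call without DMSO replicate 1 (-0.18, adjusted p = 0.106), without erlotinib replicate 4 (-0.17, adjusted p = 0.154) and without erlotinib replicate 5 (-0.21, adjusted p = 0.0825). ATP6V1E1 lost its call without DMSO replicate 1 (-0.23, adjusted p = 0.0658) and without erlotinib replicate 4 (-0.19, adjusted p = 0.15). ATP6V1D lies within GPHN, which fell by 0.45. ATP6V1E2, ATP6V1F, ATP6V1G1 and the regulatory subunit ATP6V1H had log2 fold changes of 0.11, 0.05, -0.11 and -0.20 and passed in neither direction. The scarce ATP6V1C2 had -0.75 (SE 0.41, adjusted p = 0.108, limma) and was not called either. Without DMSO replicate 2 it was called lower (-1.11, adjusted p = 0.020, limma).

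In the V0 sector, 4 of the 7 tested subunits fell and 1 rose, and this count was the same with total-count scaling. The shares were 57.1% lower and 14.3% higher, against 35.4% and 35.3% of all tested genes in the main fit. The proteolipids that carry the protons fell, ATP6V0C by 0.43 and ATP6V0B by 0.56 on the log2 scale. ATP6V0C went from 3133, 2905 and 3389 to 2305, 2375 and 2283, and ATP6V0D1, which joins V0 to the central stalk, from 4732, 4026 and 4363 to 3126, 3125 and 3190.1. For both, each erlotinib library lay below each DMSO library, and the log2 fold changes were -0.43 and -0.47 (adjusted p = 1.9e-05 and 4.5e-06, limma). ATP6V0B and ATP6V0D1 are among the genes whose promoter stretches above hold the CACGTG word.

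**Figure D4:**
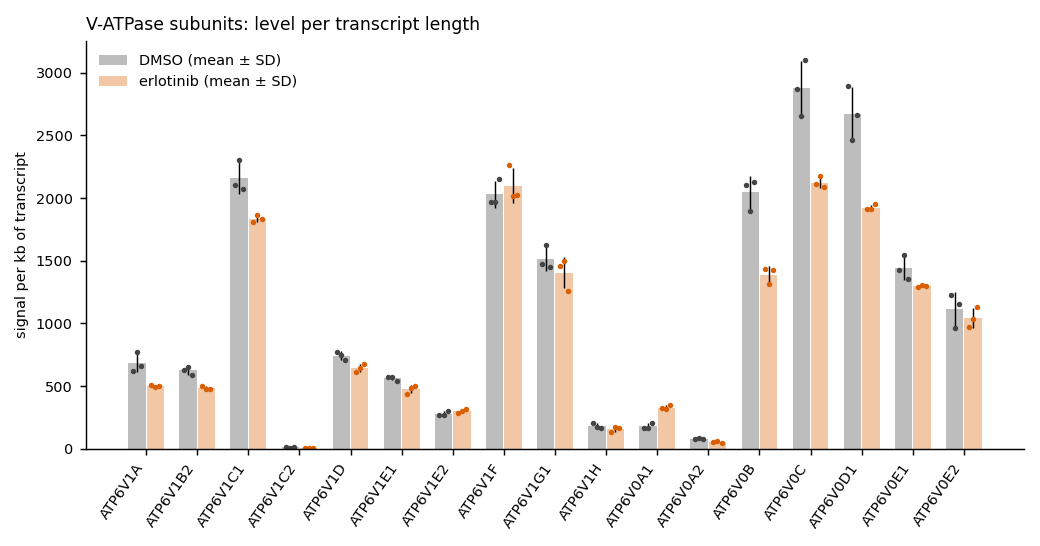
Level of the 17 tested V-ATPase subunits, as signal per kilobase of transcript (y axis, from 0), with bars for the mean and the SD of 3 libraries and a point for each library, grey for DMSO and orange for erlotinib. Of the 17 subunits drawn, which leave out TCIRG1, ATP6V0A1 alone was called higher with erlotinib, while ATP6V0A2, ATP6V0B, ATP6V0C and ATP6V0D1 of the same sector were lower.

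The exception was subunit a, the large V0 protein whose isoforms direct the pump to different membranes. ATP6V0A1 (a1, chromosome 17, 42458878 to 42522579) had 672, 674 and 849 in DMSO and 1328, 1287 and 1428 with erlotinib. ATP6V0A2 (a2, chromosome 12, 123712353 to 123761755), known from the Golgi and endosomes, had 528, 532 and 523 and then 354, 373 and 305. Neither gene had overlapping groups, and they moved in opposite directions. Their log2 fold changes were 0.89 (SE 0.10, adjusted p = 6.3e-08, limma) and -0.62 (SE 0.11, adjusted p = 5.4e-05, limma).

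TCIRG1, which encodes isoform a3 of osteoclasts and secretory lysosomes, does not carry the ATP6V0 prefix. It rose from 980.1, 909 and 1244 to 1695, 1637 and 1536, a log2 fold change of 0.65 (SE 0.10, adjusted p = 6.4e-06, limma). Isoform a4 (ATP6V0A4), a subunit of kidney, was at 6.81, 1.86 and 0 in DMSO and at 0 with erlotinib. Per kilobase of transcript, a3 led in both groups (391 ± 66.1 in DMSO and 608 ± 30.2 with erlotinib), before a1 (178 ± 24.7 and 328 ± 17.6) and a2 (81.1 ± 0.673 and 52.9 ± 5.40; SD, n = 3). The ratio of a1 to a2 was 2.02, 2.01 and 2.57 in DMSO and 5.94, 5.46 and 7.41 with erlotinib, and that of a3 to a2 went from a mean of 4.83 to 11.6. For both ratios the exact permutation test gave 0.1, the smallest p it allows (0.15 adjusted over 6 ratios).

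The ratio of ATP6V1E1 to ATP6V1E2, an isoform known from testis, was 2.16, 2.09 and 1.79 per kilobase in DMSO and 1.52, 1.62 and 1.57 with erlotinib. These groups did not overlap either, and the exact permutation p was again 0.1, the smallest possible (adjusted 0.15). ATP6V1C1 exceeded ATP6V1C2 by a ratio of 168, 404 and 170 in DMSO and 376, 361 and 266 with erlotinib. ATP6V1C2 was scarce, with 36, 20 and 37 reads in DMSO and 17, 17 and 24 with erlotinib. It shares 1720 bases with PDIA6, which went from 1365 ± 55.2 to 704 ± 29.3 (SD, n = 3), or by -0.95 on the log2 scale. The strand counted is not stated, so reads of ATP6V1C2 and PDIA6 may not be told apart. For ATP6V0E1 over ATP6V0E2 the ratio averaged 1.31 ± 0.251 without the drug and 1.25 ± 0.0901 after it (SD, n = 3). The groups overlapped for both of these ratios, and a test that cannot pass the threshold says nothing of whether they differed. ATP6V1B2 was the only B isoform with more than a few reads, as the kidney isoform ATP6V1B1 had 3.69 in erlotinib library 4 and 0 elsewhere. ATP6V0D2, the osteoclast isoform of subunit d, was at 0 in all 6 libraries, where 3 reads, about the upper 95% limit for a count of 0 (counting error only), would be a signal of 2.77 to 3.40.

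Of the 71 genes, 10 were not tested and 6 of these were at 0 in every library. For 5 of the 6 (the cathepsin CTSO, the sialidase NEU1, ATP6V1G2, ATP6V1G3 and ATP6V1G2-DDX39B), a copy of at least 90% of the transcript at an identity of at least 97% lies on 1 of the 261 alternate contigs of the genome. The authors counted uniquely mapped reads, so their zeros cannot be read as absence of expression. The remaining untested genes besides ATP6V0A4 and ATP6V1B1 were the pseudogene ATP6V0CP3 and the antisense RNA ATP6V1B1-AS1. The latter had 11.3, 14.9 and 15 in DMSO and 0, 0.99 and 1.87 with erlotinib, groups that do not overlap.

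The other 2 tested rows with the prefix were also scarce. ATP6V1FNB, with 4.54, 16.7 and 9.63 in DMSO and 38.8, 28.7 and 47.7 with erlotinib, had a log2 fold change of 1.93 (SE 0.48, adjusted p = 0.0012, limma). ATP6V0E2-AS1, the antisense RNA of ATP6V0E2, fell from 77.1, 71.5 and 81.3 to 37.8, 21.8 and 51.5. Neither had overlapping groups, and the log2 fold change of the latter was -1.11 (SE 0.30, adjusted p = 0.0027, limma). ATP6V0E2 itself, with which it shares 899 bases, had -0.09 (adjusted p = 0.37, limma). Without DMSO replicate 2, ATP6V0E2 was called lower (-0.19, adjusted p = 0.017, limma).

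The 5 lists of other lysosome genes were examined in the same fit. Of 23 tested enzymes and activators outside the genes above, 18 rose and 0 fell (limma), with a median log2 fold change of 0.52. The shares were 78.3% higher and 0% lower, against 35.3% and 35.4% of all tested genes. None fell at an unadjusted p under 0.05 or with edgeR, DESeq2 or limma-voom, and 1 was called lower without DMSO replicate 2. The acid phosphatase ACP5 had 199, 134 and 159 in DMSO and 518, 566 and 476 with erlotinib. HGSNAT, the acetyltransferase of heparan sulfate breakdown, went from 363, 319 and 322 to 1044, 888 and 1016, and SMPDL3A, a relative of SMPD1, from 71.5, 108 and 55.7 to 202, 245 and 224. Their log2 fold changes were 1.68, 1.55 and 1.55, and no gene of the 3 had overlapping groups.

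Of 28 tested membrane proteins and transporters outside the genes above, 12 rose and 3 fell (42.9% and 10.7%, against 35.3% and 35.4% of all tested genes), with a median of 0.15, or 18 and 3 with total-count scaling. The nucleoside transporter SLC29A3 (1.79), the sialic acid exporter SLC17A5 (1.35) and the glycoprotein GLMP (1.23) rose most. CLN6, an endoplasmic reticulum protein needed to export lysosomal enzymes, fell from 2760.0, 2198 and 2384 to 872, 896 and 759. This fall, with a log2 fold change of -1.53 (SE 0.09, adjusted p = 4.8e-12, limma), was near that of GLA. The channel MCOLN2 fell by 1.12 and TMEM192 by 0.46 on the log2 scale.

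Of 15 tested genes for accessory and assembly proteins of the V-ATPase, 7 rose, 3 fell and 5 did neither (median 0.31 on the log2 scale). The list also holds the a3 subunit gene TCIRG1 among its rises. The shares were 46.7% higher and 20% lower, against 35.3% and 35.4% of all tested genes. NCOA7, a protein of the TLDc family that binds the pump, went from 557, 624 and 455 to 2489.8, 2714 and 2772, a log2 fold change of 2.29 (SE 0.10, adjusted p = 3.0e-14, limma). ATP6AP1L and ROGDI, a subunit of the pump's RAVE-like assembly complex, rose by 1.66 and 1.57. VMA21, which assembles the V0 sector in the endoplasmic reticulum, had 4445, 5515 and 4516 in DMSO and 2397, 2304 and 2295 with erlotinib. It was lower in each erlotinib library, with a log2 fold change of -1.04 (SE 0.08, adjusted p = 2.0e-10, limma). TMEM199, which acts in the same assembly step, fell by 0.72, and MEAK7 by 0.62.

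Of 31 genes that sort enzymes to the lysosome, 10 were higher and 13 lower (32.3% and 41.9%, near the 35.3% and 35.4% of all tested genes), with a median of -0.15, or 11 higher and 6 lower with total-count scaling. SUMF1, which activates all sulfatases by converting a cysteine in their active site, rose from 701, 713 and 737 to 1513, 1482 and 1555, a log2 fold change of 1.08. The sorting receptor SORT1 rose by 0.86. Among the mannose 6-phosphate receptors, M6PR fell by 0.68 on the log2 scale and IGF2R rose by 0.21. The adaptor subunits AP4E1 and AP1B1 fell by 0.85 and 0.78.

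Of 22 tested genes that control TFEB family proteins at the lysosome, 7 rose and 7 fell (31.8% each way, below the shares of all tested genes), with a median of -0.05, or 9 and 5 with total-count scaling. DEPTOR, an inhibitor that binds mTOR, went from 43.1, 31.6 and 37.5 to 339, 282 and 344. The groups were far apart, with a log2 fold change of 3.08 (SE 0.20, adjusted p = 1.4e-11, limma). The tuberous sclerosis gene TSC2, an inhibitor of mTORC1, rose by 0.79 and FNIP2, a partner of folliculin, by 0.50. LAMTOR5, a subunit of the Ragulator scaffold, YWHAB, a 14-3-3 protein, and RPTOR, the mTORC1 subunit that recruits substrates, fell by 0.69, 0.65 and 0.57.

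**Figure D5:**
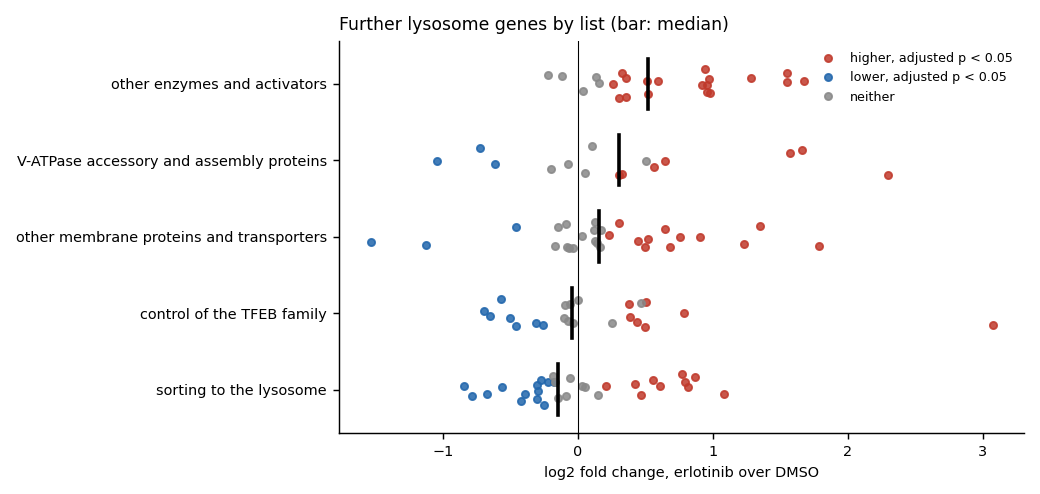
Log2 fold change of each tested gene of 5 further lists (x axis, log2 scale), 1 point a gene, spread vertically only to keep points apart, with a black bar at the median of each list. Red points were called higher, blue lower and grey neither at an adjusted p under 0.05. The list of other enzymes has its median at 0.52 and no blue point, and the sorting list has its median at -0.15.

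Some markers of other cells that use these genes were higher with erlotinib. The 5 osteoclast markers summed to 205, 143 and 171 in DMSO and to 526, 580.1 and 490.5 with erlotinib. Besides ACP5, this list held CALCR at a mean of 10.7 and DCSTAMP, OCSTAMP and OSCAR at 0, the last with a copy on an alternate contig. PMEL, a pigment cell gene, rose from 13.6, 24.1 and 43.9 to 114, 86.1 and 89.9 (log2 fold change 1.93), while TYR was at 0 in each library. The 5 pigment cell markers summed to 19.3, 30.6 and 51.4 in DMSO and to 122, 91.1 and 115 with erlotinib. The 7 fibroblast markers summed to 73.7, 75.2 and 109 in DMSO and to 260.2, 223 and 217 with erlotinib. Most of this was COL1A1, a collagen gene, which rose from 68.1, 69.7 and 95.3 to 245, 213 and 190.0 (log2 fold change 1.47), and its partner COL1A2 stayed below 3 in each library. LUM, which encodes a matrix proteoglycan and was too scarce to be tested, had 2, 4 and 6 reads in DMSO and 10, 10 and 20 with erlotinib, without overlap. The most abundant genes of these 3 lists were ACP5, PMEL and COL1A1. The leukocyte markers other than CSF1R, given above, were also higher in sum with erlotinib. The part of these cell markers in the changes of the lysosome genes was not tested.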

How the data were processed

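RNA-seq of 6 HCC827 libraries (3 DMSO, 3 erlotinib) was analysed from the table the authors deposited. Per the study's methods and processing notes, paired-end reads were mapped to GRCh38 with Bowtie2 2.3.4, and uniquely mapped reads were counted per gene with featureCounts 1.6.3. DESeq2 1.18.1 was the study's test. The strand counted is not given in the sources used here. Bowtie2 does not split reads at introns, so reads across distant exons can be lost. The deposited values are a signal, not whole counts. Within a library all values are multiples of a common step, which is what reads divided by a size factor give. Dividing by it gave whole reads (within 0.01) for 100% of values.

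The 14215 genes whose signal averaged 10 or more were tested with limma 3.58.1 (trended variance, two-sided) on log2(signal + 1), with Benjamini-Hochberg adjustment over all of them and a threshold of 0.05. A fold change on this scale understates that of scarce genes. The unit differed from the test of the study, so count-based tests (edgeR 4.0.16 with TMM factors, DESeq2 1.42.0, limma-voom) were run on the recovered reads as alternatives. edgeR called 5085 genes higher and 4941 lower. Other alternatives were total-count scaling, TMM factors in limma, pseudocounts of 0.1 and 10, no filter, at least 10 reads in every library, and each library left out in turn. Pairs of replicates differed beyond counting noise, with a chi-square of 4.13 to 24.3 for each degree of freedom. The highest values were those of DMSO library 2, at 24.3 against library 1 and 15.2 against library 3. DMSO libraries 1 and 3 gave 7.96, and the erlotinib pairs 4.13 to 6.08. No column was left out, and 475 rows without a symbol were kept. The fits were tested on simulated data. R was version 4.3.3.

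The genes, their role groups and the further lists were chosen with earlier results of these data known, so no list is independent evidence of its direction. Genes described in full were TFEB, TFE3, MITF, LAMP1 and LAMP2, the largest called rise and fall of each role group, and members called with an absolute log2 fold change of at least 1. Lists outside the members gave up to 3 genes a direction (some genes of these lists are not reported here), and alternative V-ATPase subunits were compared whatever their change. Other named genes (CTSL, GAA, ATP6V0C, ATP6V0D1, IGF2R and those overlapping a member) were chosen after their values were seen. Positions came from RefSeq GRCh38.p14 and transcript lengths from GENCODE release 44 (1 transcript a gene). Copies on alternate contigs were found with minimap2 2.31-r1302. Figures were drawn with Python 3.11.15 and matplotlib 3.10.9.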

Additional observations from a re-analysis of the deposited data

How the results depend on the processing

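Of 913 comparisons of a tested gene with its value under 1 of 15 alternatives, 865 kept direction and side of the threshold, 15 lost a call, 18 gained one and 15 changed sign. Of the 46 called genes, 39 kept their call in all 15 alternatives, ATP6V1FNB kept it in the 14 that tested it (it did not enter with at least 10 reads in every library), and 0 changed sign. Scaling to the total count moved most. The median log2 fold change of the 61 genes was then 0.38 in place of 0.20 (0.198 in place of 0.017 over all genes), 6 membrane proteins were higher in place of 3, 1 lipid enzyme lower in place of 2, 2 V1 subunits higher and 2 lower in place of 0 and 5, and 6 sorting genes lower in place of 13. The signs of TFE3 (0.18), CTSL (0.15), ATP6V1G1 (0.066), ATP6V0E2 (0.088) and ATP6V0E1 (0.028) turned positive, none of them called. TFE3 was also positive with edgeR (0.013), DESeq2 (0.0048) and limma-voom (0.013). The median of the genes tested was 0.11 without a filter, where 65 genes entered (0.13 over all genes), and 0.11 with at least 10 reads in every library, where 59 entered and TFEB did not, so that 0 regulators were higher.

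With each library left out in turn, the median of the genes lay between 0.13 and 0.21, V1 subunits called lower between 3 and 6, other enzymes called lower between 0 and 1, and regulators called higher between 0 and 1. The lowest V1 count came without DMSO replicate 1 and without erlotinib replicate 4, the lowest median without DMSO replicate 2 (0.127), and the regulator lost was TFEB, without erlotinib replicate 4 or 6. The sign of 4 uncalled genes changed with the library left out. TFE3 lay between -0.040 and 0.034 (positive without DMSO replicate 1, DMSO replicate 3 or erlotinib replicate 6), CTSL between -0.10 and 0.077 (positive without DMSO replicate 2 or erlotinib replicate 4), IDS between -0.013 and 0.062 (negative without DMSO replicate 3) and ATP6V1F between -0.0066 and 0.091 (negative without erlotinib replicate 4). The cause was not tested in any of these cases. No paired analysis was possible because the columns of the erlotinib libraries carry other numbers than those of the DMSO libraries. The values of TFEB, CTSK and the other genes with a mean signal below 50 rest on few reads.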
